A study of Homo sapiens with 6 samples.

Results

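A set of 10 receptor tyrosine kinases outside the ErbB family was examined: the HGF receptor MET, the TAM receptors TYRO3, AXL and MERTK, the FGF receptors FGFR1, FGFR2, FGFR3 and FGFR4, the GDNF-family receptor RET and the collagen receptor DDR1. They were listed by name, as receptors through which a cell can bypass a blocked pathway, with no rule on measured values, though earlier results of these data were known when the list was made. All 10 receptors had a row among the 35554 genes of the count table, and 9 of the 10 had enough counts to be tested. Polyadenylated RNA was sequenced from parental LNCaP, an established androgen-dependent line from a metastasis of human prostate carcinoma (n = 3), and from its derivative LNCaP-enzaR (n = 3). Enzalutamide inhibits androgen signalling, and LNCaP-enzaR is what grew out of the parental line under long exposure to it, later kept at a reduced dose. The labels do not give the medium at harvest for either line. Each library came from its own flask. LNCaP-enzaR is 1 derived line with 1 culture history, so p-values measure the spread between flasks and not between independent selections. The study asked whether signalling through HER2 and HER3 provides a bypass of androgen dependence, and the comparison of lines is extended here to receptors other than these.

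Receptor tyrosine kinases are single-pass membrane proteins that dimerise when they bind ligand, phosphorylate each other on tyrosines and recruit adaptors that feed the RAS-ERK, PI3K-AKT and PLCγ pathways. Because the pathways below them are shared, a cell that loses one input can be driven by another, which is what is meant by bypass signalling. MET is known for its part in epithelial migration and in resistance to ErbB inhibitors, AXL for resistance to targeted drugs, and FGF signalling for prostate growth.

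The threshold was an adjusted p no higher than 0.05 (edgeR quasi-likelihood test, Benjamini-Hochberg over all 19711 genes tested) together with a difference of 1.5-fold or more, up or down. Levels are CPM, the counts scaled to a library of 1e+06 after TMM scaling. The log2FC is the base-2 logarithm of the LNCaP-enzaR level over the parental level, given with its standard error (SE). By these limits MET was higher and FGFR3 was lower in LNCaP-enzaR, and 7 of the 9 receptors tested had no call.

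MET and FGFR3 were the receptors past the threshold, in opposite directions, and the 250 bases before their annotated starts are shown for that reason (RefSeq, GRCh38.p14). The MET stretch lies at chr7:116671946-116672195 and the FGFR3 stretch at chr4:1793043-1793292, both on the plus strand. Capitals mark the SP1 box, GGGCGG on either strand.
MET: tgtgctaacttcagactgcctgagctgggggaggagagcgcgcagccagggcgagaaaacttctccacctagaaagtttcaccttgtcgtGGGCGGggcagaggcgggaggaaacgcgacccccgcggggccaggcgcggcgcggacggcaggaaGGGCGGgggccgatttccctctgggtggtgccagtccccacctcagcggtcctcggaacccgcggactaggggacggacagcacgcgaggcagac
FGFR3: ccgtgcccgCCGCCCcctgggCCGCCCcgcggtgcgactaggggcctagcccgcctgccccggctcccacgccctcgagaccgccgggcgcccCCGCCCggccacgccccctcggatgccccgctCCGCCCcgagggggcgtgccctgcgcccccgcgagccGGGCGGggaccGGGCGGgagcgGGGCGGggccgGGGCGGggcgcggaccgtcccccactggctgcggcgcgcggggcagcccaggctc
The MET stretch held 2 SP1 boxes and 24 CpG dinucleotides at 68.4% GC, and the FGFR3 stretch held 8 SP1 boxes and 40 CpG dinucleotides at 86.8% GC. Among 35116 RefSeq promoters of the same length, 42.6% held at least 1 SP1 box and 13.9% held at least 3. Neither stretch held a CCAAT box, an AP-1 site (TGANTCA), an E-box (CANNTG), the hexamer AGAACA or a TATA box (TATAAA) on either strand. Over all RefSeq promoters (250 bases before to 50 after the start), 34.6% held the CCAAT box, 7.71% the AP-1 site, 68.7% the E-box, 14.8% the hexamer and 11.5% the TATA box. In that longer window MET and FGFR3 each held 1 E-box, which did not lie wholly before the start. These matches describe the letters only, and no measurement here reads binding or methylation at either start.

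Libraries held 77759122 to 98616465 counts, and a two-sided exact permutation test of the totals gave p = 0.60, where 0.10 is the smallest possible. A level of 3 counts, the floor used here, was 0.0302 to 0.0382 CPM, which covers counting error only. Libraries of a line correlated at a Pearson r of 0.9968 to 0.9981 across genes, and libraries of different lines at 0.9501 to 0.9547. The lines were far apart: 42.7% of the genes tested were past the threshold, 23.3% higher and 19.5% lower in LNCaP-enzaR. Mitochondrial transcripts took a mean of 15.1% of the counts in LNCaP-enzaR and 6.87% in parental cells, and without them no receptor changed its direction or its call. Prostate luminal markers were high in every library (summed over 8 genes, 4710 to 4842 CPM in parental cells and 3005 to 3307 in LNCaP-enzaR), with 5 of the 8 lower and 1 higher. Leukocyte markers were near 0 (summed over 4 genes, at most 0.184 CPM). Endothelial markers summed to 5.65 to 6.12 CPM in parental cells and 3.93 to 4.35 in LNCaP-enzaR, and fibroblast markers to 13.4 to 16.3 and 7.23 to 7.85 CPM. Of the 3 fibroblast markers tested, 2 were higher (LUM and PDGFRB) and 1 was lower (COL1A1, from 13.4 to 4.29 CPM), with a median log2FC of 1.43, and COL1A1 carried most of the sum. VWF, at 5.74 and 4.15 CPM with no call, carried most of the endothelial sum, while PECAM1 and CDH5 were at or under 0.0287 CPM in the mean of either line. The markers singled out were chosen after their values were seen. The part of these markers in the results was not tested. In bulk RNA, fewer cells with a transcript and less of it per cell cannot be told apart.

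Of the 9 receptors tested, 2 were past the threshold (22.2%, against 42.7% of all genes), 3 more had an adjusted p of at most 0.05 with a fold under 1.5, and 4 had an adjusted p above 0.05. Without the fold limit, 5 of 9 (55.6%) stand against 66.3% of all genes. The libraries of the lines did not overlap for 5 of 9 (55.6%), against 70.6% of all genes. The median log2FC of the receptors was 0.02 and that of all genes tested was 0.01. Each of these shares was under that of all genes. The gene lists described below have the same background, 23.3% higher and 19.5% lower.

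**Figure D1:**
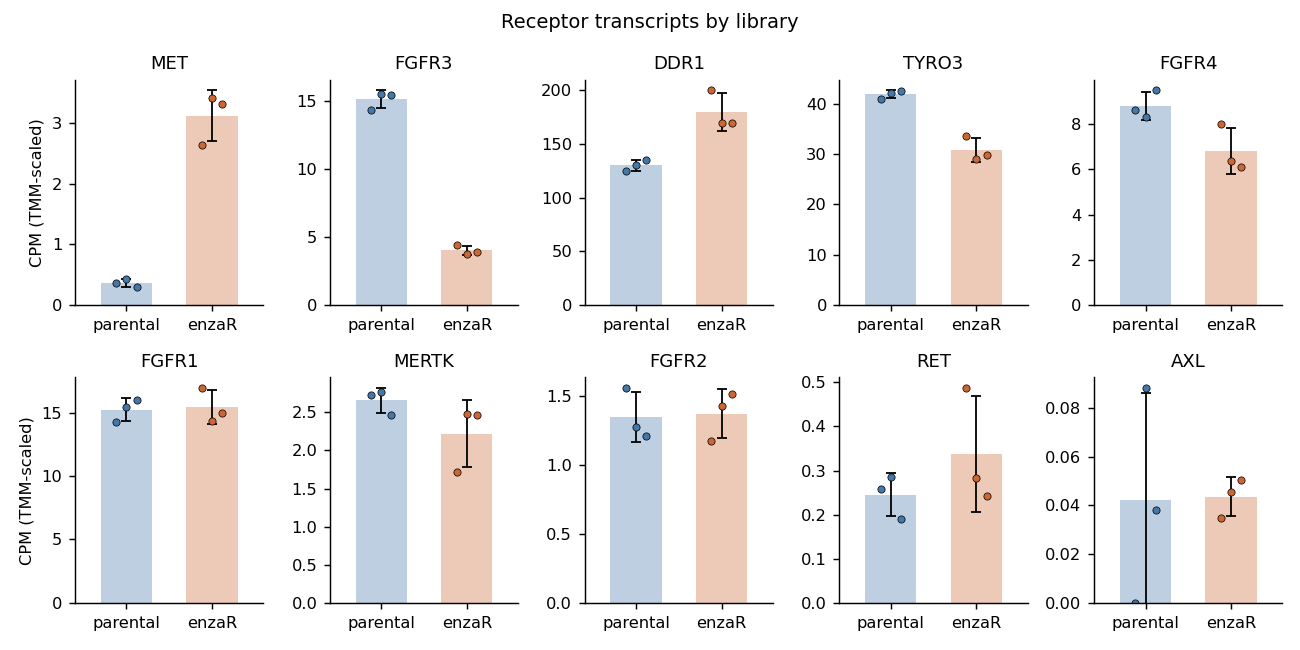
Level of each receptor (CPM of the TMM-scaled library, linear axes from 0 with a scale of their own) in the 3 parental and 3 LNCaP-enzaR libraries, as points, with the mean as a bar and the SD as the error bar. The MET points stand at 0.293 to 0.429 in parental cells and 2.64 to 3.41 in LNCaP-enzaR, the FGFR3 points at 14.3 to 15.5 and 3.77 to 4.42, and the points of FGFR1, FGFR2, MERTK, RET and AXL overlap between lines.

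MET (ENSG00000105976, chromosome 7, 116672196 to 116798377, GRCh38), the receptor for hepatocyte growth factor, rose from a very low level. It had 34, 39 and 23 counts in the parental libraries (0.367, 0.429 and 0.293 CPM) and 228, 301 and 328 counts in the LNCaP-enzaR libraries (2.64, 3.41 and 3.31 CPM). Every LNCaP-enzaR library was above every parental library, and the lowest of the former was LNCaP-enzaR replicate 1. Means with SD were 0.363 ± 0.068 CPM for the 3 parental and 3.12 ± 0.42 CPM for the 3 LNCaP-enzaR libraries, and values with ± are given this way throughout. The log2FC was 3.09 (SE 0.21, 95% interval 2.65 to 3.53), an 8.52-fold difference, with an adjusted p of 7.74e-09. Even after this rise, MET stood at 0.432 CPM per kilobase of exon, rank 27 of the 58 receptor tyrosine kinases, after rank 34 in parental cells.

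The gene of its ligand, HGF, had no row among the genes counted, so its level could not be given. Of 9 tested genes that process the ligand, inhibit its processing or act beside MET, 1 rose, 1 fell and 7 had no call, with a median log2FC of 0.45. HPN, which encodes the protease hepsin that can activate pro-HGF, rose from 88.6 ± 2.9 to 171 ± 23 CPM (log2FC 0.95, SE 0.08, adjusted p = 1.06e-07). In 10.3% of its exonic bases HPN shares exons with another gene. CBL, a ubiquitin ligase that marks active receptors for degradation, fell from 36.8 ± 1.9 to 22.3 ± 1.1 CPM (log2FC -0.72, SE 0.07, adjusted p = 3.52e-07). The number of genes called higher in this group was 4 under upper-quartile scaling.

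TYRO3, AXL and MERTK form the TAM family, whose ligands GAS6 and protein S bridge them to phosphatidylserine on dying cells. TYRO3 (ENSG00000092445, chromosome 15, 41557675 to 41583589) was the most abundant, at 40.9, 42.1 and 42.5 CPM in the parental libraries and 33.6, 29.0 and 29.9 CPM in the LNCaP-enzaR libraries. Each LNCaP-enzaR library was below each parental one. The log2FC was -0.44 (SE 0.07, 95% interval -0.59 to -0.29) with an adjusted p of 5.71e-05, a 1.36-fold difference, which is under the fold limit. MERTK (ENSG00000153208, chromosome 2, 111898607 to 112029561), known for clearance of dying cells by macrophages, stood at 2.72, 2.77 and 2.47 CPM in parental cells and 1.72, 2.48 and 2.47 CPM in LNCaP-enzaR. The lines overlapped, and the difference did not pass the test (log2FC -0.26, 95% interval -0.61 to 0.10, adjusted p = 0.188). AXL (ENSG00000167601, chromosome 19, 41219223 to 41261766) had 0, 8 and 3 counts in the parental libraries and 3, 4 and 5 counts in the LNCaP-enzaR libraries. At this depth AXL was at or near the floor in both lines and was not tested. On the scale of CPM per kilobase, TYRO3 made up 85.7 ± 0.90% of the summed TAM level in parental cells and 83.9 ± 3.6% in LNCaP-enzaR.

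The main TAM ligands, GAS6 and protein S, rose in LNCaP-enzaR. GAS6 stood at 10.6, 9.85 and 10.4 CPM in parental cells and at 22.2, 19.7 and 21.1 CPM in LNCaP-enzaR, a log2FC of 1.03 (SE 0.08, adjusted p = 2.74e-08). Some of its exonic bases lie in another gene as well. PROS1, which encodes protein S, rose from 5.59 ± 0.31 to 9.72 ± 0.57 CPM (log2FC 0.80, SE 0.09, adjusted p = 3.40e-06). For each ligand every LNCaP-enzaR library was above every parental library. Of the 6 tested genes that encode established or proposed TAM ligands or proteases that shed the receptors, 2 rose, 1 fell and 3 had no call, with a median log2FC of -0.003. The gene called lower, TULP1, a tubby-like protein proposed as a TAM ligand and chosen after its values were seen, stood at 0.389 to 0.748 CPM in parental cells and 0.181 to 0.359 in LNCaP-enzaR, and lost its call under several alternatives (adjusted p 0.0573 to 0.147 in those, and 0.0149 to 0.147 over all).

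The FGF receptors did not move together. FGFR3 (ENSG00000068078, chromosome 4, 1793293 to 1808872) had 1328, 1412 and 1212 counts in the parental libraries (14.3, 15.5 and 15.4 CPM) and 381, 333 and 387 counts in the LNCaP-enzaR libraries (4.42, 3.77 and 3.90 CPM). The lines were far apart relative to the spread within them. FGFR3 fell by 1.91 on the log2 scale (SE 0.09, 95% interval -2.11 to -1.70), a 3.75-fold difference, with an adjusted p of 2.86e-10. FGFR4 (ENSG00000160867, chromosome 5, 177086905 to 177098144), the receptor for FGF19 with the co-receptor β-Klotho, stood at 8.62, 8.29 and 9.47 CPM in parental cells and at 7.97, 6.34 and 6.12 CPM in LNCaP-enzaR. All of the LNCaP-enzaR libraries were below the parental ones, LNCaP-enzaR replicate 1 by the smallest margin. The log2FC was -0.37 (SE 0.11, adjusted p = 0.00957, 95% interval -0.61 to -0.13), under the fold limit. Without LNCaP-enzaR replicate 3, the adjusted p was 0.0525.

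FGFR1 (ENSG00000077782, chromosome 8, 38400215 to 38468834) stood at 14.2, 15.4 and 16.0 CPM in the parental libraries and at 16.9, 14.3 and 15.0 CPM in LNCaP-enzaR. The lines overlapped, with a log2FC of 0.02 (95% interval -0.16 to 0.20, adjusted p = 0.860), so a change of 1.5-fold lies outside the interval. FGFR2 (ENSG00000066468, chromosome 10, 121478332 to 121598458), an epithelial FGF receptor, stood at 1.56, 1.28 and 1.21 CPM and at 1.17, 1.43 and 1.51 CPM. Its log2FC was 0.02 with a wider interval of -0.39 to 0.44 (adjusted p = 0.922). The sign of both values turned with library totals in place of TMM and when some single libraries were left out.

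Per kilobase of exon, FGFR3 made up 52.8 ± 1.4% of the level summed over the 4 FGF receptors in parental cells and 25.9 ± 0.68% in LNCaP-enzaR. FGFR4 made up 31.0 ± 1.5% and 43.9 ± 1.9%, and FGFR1 made up 15.0 ± 0.33% and 27.9 ± 0.80%. FGFR2 stayed at or under 2.65% in every library. The summed level was 5.90 ± 0.24 CPM per kilobase in parental cells and 3.22 ± 0.35 in LNCaP-enzaR. These shares depend on the length assigned to each gene, since the exons of FGFR1 cover 17201 bases and its longest transcript 6216. With longest transcripts, FGFR3 made up 39.0 ± 1.1% and 16.1 ± 0.32%, and FGFR1 took the largest share in LNCaP-enzaR, 42.7 ± 0.95%.

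**Figure D2:**
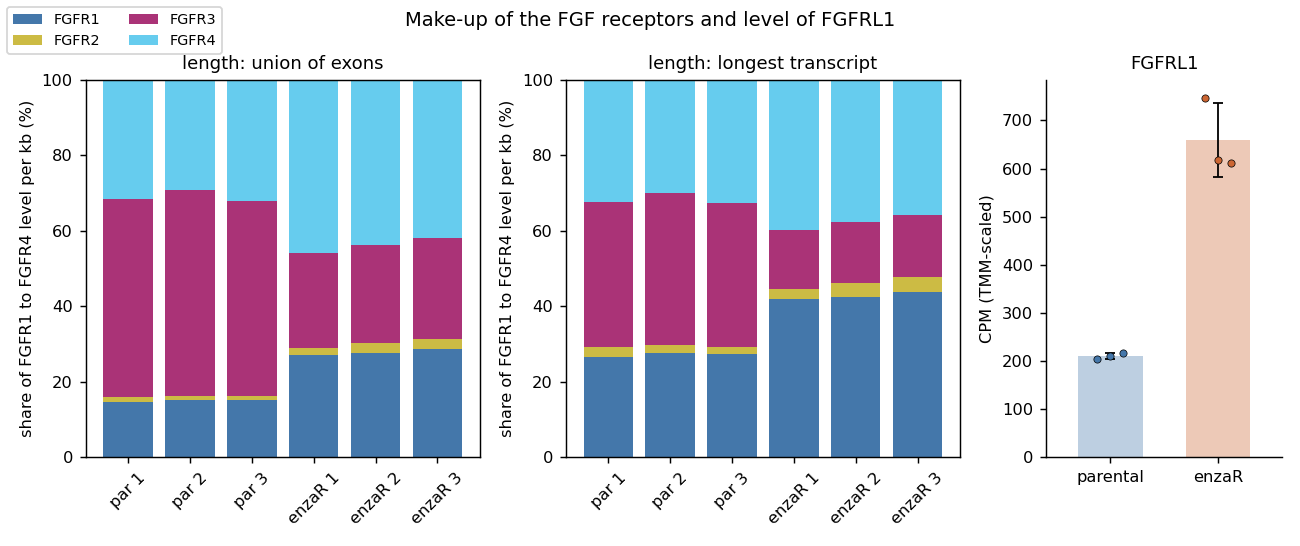
Share of each FGF receptor in the summed level per kilobase of FGFR1 to FGFR4 (percent, stacked bars, 1 bar per library), with length taken as the union of exons on the left and as the longest transcript in the middle, and on the right the level of FGFRL1 in CPM as points with mean and SD. By either length, FGFR3 holds a smaller share in each LNCaP-enzaR library than in each parental library, and FGFRL1 stands at 204 to 216 CPM in parental cells and 612 to 747 in LNCaP-enzaR.

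FGFRL1, a receptor-like protein that binds FGFs but lacks the kinase domain, rose from 204, 210 and 216 CPM to 747, 618 and 612 CPM. The log2FC was 1.65 (SE 0.07, adjusted p = 9.48e-11). Per kilobase, FGFRL1 stood at 8.19 ± 0.093 times the summed kinase-bearing FGF receptors in parental cells and 47.2 ± 0.55 times in LNCaP-enzaR (6.41 and 31.1 times with longest transcripts).

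Cell type markers aside, the FGF co-receptors and binding proteins were the group with the largest share of calls among the lists: 9 of 13 tested were higher, 4 were lower and none was without a call, with a median log2FC of 0.68. FLRT2, a membrane protein known to associate with FGF receptors, rose from 2.02 ± 0.067 to 16.4 ± 0.52 CPM (log2FC 3.02, SE 0.09, adjusted p = 2.64e-12). SDC4, a heparan sulfate proteoglycan, rose from 15.8 ± 0.32 to 72.1 ± 0.14 CPM (2.19, SE 0.06, adjusted p = 9.81e-13). The Klothos, co-receptors of the endocrine FGFs, were lower. KLB, β-Klotho, had 84, 72 and 75 counts in parental cells and 8, 34 and 16 counts in LNCaP-enzaR (log2FC -2.05, SE 0.41, adjusted p = 0.000485). Leaving out LNCaP-enzaR replicate 2 gave -2.77. KL, α-Klotho, had 49, 26 and 13 counts in parental cells and 0, 0 and 4 counts in LNCaP-enzaR. This gave a log2FC of -4.38 with SE 0.87 (adjusted p = 0.000484). Leaving out LNCaP-enzaR replicate 3, the library that held those 4 counts, gave -7.85.

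Secreted FGFs were scarce in both lines. Of 18 listed genes 12 had a row, and their summed level was 1.87 to 2.20 CPM in parental cells and 2.21 to 2.45 CPM in LNCaP-enzaR. Of the 4 that could be tested 2 rose and 1 fell, and all of these were chosen after their values were seen. FGF7, a ligand of FGFR2, had 7, 0 and 1 counts in parental cells and 48, 38 and 60 in LNCaP-enzaR (log2FC 4.07, SE 0.66, adjusted p = 8.04e-05). Leaving out parental replicate 1 gave 6.18 and leaving out parental replicate 2 gave 3.48. FGF1 had 1, 13 and 7 counts and 28, 23 and 48 counts (2.13, SE 0.61, adjusted p = 0.00698), and 2.86 without parental replicate 2. FGF21, an endocrine FGF that acts through KLB, fell from 68, 71 and 79 counts to 9, 17 and 9 counts (-2.69, SE 0.37, adjusted p = 1.74e-05).

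Transcripts that FGF receptors and ERK are known to induce were mostly higher: of 9 genes tested, 6 rose, 1 fell and 2 had no call, with a median log2FC of 1.25. ErbB receptors induce these genes through ERK as well. ETV5, an ETS transcription factor, had 26, 24 and 8 counts in parental cells and 685, 815 and 689 counts in LNCaP-enzaR (log2FC 5.18, SE 0.23, adjusted p = 7.69e-11). ETV4, chosen after its values were seen, rose from 2, 22 and 5 counts to 101, 107 and 136 counts (3.49, SE 0.48, adjusted p = 1.58e-05), and by 4.88 without parental replicate 2. DUSP6, an ERK phosphatase also chosen after its values were seen, rose from 13, 12 and 3 counts to 70, 103 and 97 counts (3.20, SE 0.39, adjusted p = 5.33e-06), and 28.6% of its exonic bases lie in another gene. SPRY1, a feedback inhibitor of receptor tyrosine kinase signalling, went the other way, from 72.9 ± 2.2 to 11.8 ± 0.32 CPM (-2.62, SE 0.06, adjusted p = 2.90e-13). The summed level of the 9 genes was 119 to 124 CPM in parental cells and 95.5 to 105 CPM in LNCaP-enzaR, a sum to which SPRY1 was the largest contributor in parental cells.

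RET (ENSG00000165731, chromosome 10, 43077064 to 43130351), which signals when a GDNF-family ligand brings it together with a GFRα co-receptor, was low in both lines. It had 24, 26 and 15 counts in the parental libraries and 42, 25 and 24 counts in the LNCaP-enzaR libraries. The lines overlapped, and LNCaP-enzaR replicate 1 stood above the other 5 libraries at 0.487 CPM. The log2FC was 0.45 (SE 0.42, 95% interval -0.45 to 1.34, adjusted p = 0.365). Leaving out LNCaP-enzaR replicate 1 gave 0.10. The interval reaches up to a 2.53-fold difference, so differences past the fold limit lie within it.

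Of the 6 RET ligands and co-receptors tested, 3 rose, 1 fell and 2 had no call, with a median log2FC of 0.72. GDNF had 7, 5 and 1 counts in parental cells and 15, 18 and 23 counts in LNCaP-enzaR (log2FC 2.02, SE 0.62, adjusted p = 0.0106). Without parental replicate 3 its adjusted p was 0.053, and 14.7% of its exonic bases lie in another gene. NRTN, neurturin, rose from 1.06 ± 0.17 to 1.97 ± 0.33 CPM (0.89, SE 0.20, adjusted p = 0.00123). ARTN, artemin, fell from 253, 281 and 273 counts to 78, 50 and 74 counts (-2.07, SE 0.20, adjusted p = 3.30e-07). PSPN, persephin, stood at 5.71 ± 0.52 and 4.86 ± 0.38 CPM and did not pass the test (-0.23, adjusted p = 0.0838). Of the co-receptors, GFRA2 had 0 counts in every parental library and 22, 22 and 19 counts in LNCaP-enzaR, at least 6.71-fold higher when 3 counts per library are taken as the floor. GFRA3 had 1 count in 1 parental library and 0 in the others. GFRA1, GFRA4 and GFRAL, also co-receptors on the list, had no row among the genes counted. GDF15, a ligand on the list chosen after its values were seen, carried most of the summed level of the list. It rose from 244 ± 3.9 to 357 ± 37 CPM, under the fold limit (0.55, SE 0.07, adjusted p = 5.30e-06).

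DDR1 (ENSG00000204580, chromosome 6, 30876421 to 30900156), a receptor that collagen activates slowly and over a long time, was the most abundant of the 10 receptors in both lines. It had 11568, 11880 and 10596 counts in the parental libraries (125, 131 and 135 CPM) and 17236, 14976 and 16778 counts in the LNCaP-enzaR libraries (200, 170 and 169 CPM). Each LNCaP-enzaR library was above each parental one, replicate 1 by the most. The log2FC was 0.46 (SE 0.07, 95% interval 0.32 to 0.61, adjusted p = 3.23e-05), a 1.38-fold difference, under the fold limit in the fit and in every alternative run (at most 0.56).

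Most genes of collagens that can bind DDR receptors passed the threshold. Of 12 tested, 8 rose, 3 fell and 1 had no call, with a median log2FC of 1.44. Of those that rose, COL4A3 and COL4A4, chosen after their values were seen, had only 1 to 10 counts per parental library. COL6A2, a chain of collagen VI, rose from 19.0 ± 0.50 to 99.8 ± 11 CPM (2.39, SE 0.08, adjusted p = 5.87e-12), and COL6A1, chosen after its values were seen, from 57.4 ± 2.8 to 137 ± 16 CPM (1.26, SE 0.08, adjusted p = 2.85e-09). COL6A3, another chain of collagen VI also chosen after its values were seen, was too scarce to be tested. It had 2, 2 and 0 counts in parental cells and 2, 6 and 10 counts in LNCaP-enzaR. COL4A5, a basement membrane chain also chosen after its values were seen, rose from 65.1 ± 1.0 to 223 ± 2.3 CPM (1.77, SE 0.05, adjusted p = 1.55e-12). COL5A1, a fibrillar chain, fell from 18.2 ± 1.5 to 3.17 ± 0.34 CPM (-2.52, SE 0.10, adjusted p = 4.52e-11). COL5A2, another chain of collagen V chosen after its values were seen, rose from 6.35 ± 0.63 to 12.9 ± 0.26 CPM (1.02, SE 0.09, adjusted p = 2.08e-07). The other genes that fell, also chosen after their values were seen, were COL1A1 and COL4A2. COL1A1 fell from 13.4 ± 1.5 to 4.29 ± 0.44 CPM (-1.64, SE 0.11, adjusted p = 7.61e-09). COL4A2 fell from 1.24 ± 0.15 to 0.388 ± 0.048 CPM (-1.67, SE 0.25, adjusted p = 3.14e-05). COL4A1, chosen in the same way, had 0, 0 and 1 counts in parental cells and 2, 2 and 3 in LNCaP-enzaR, and was not tested.

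**Figure D3:**
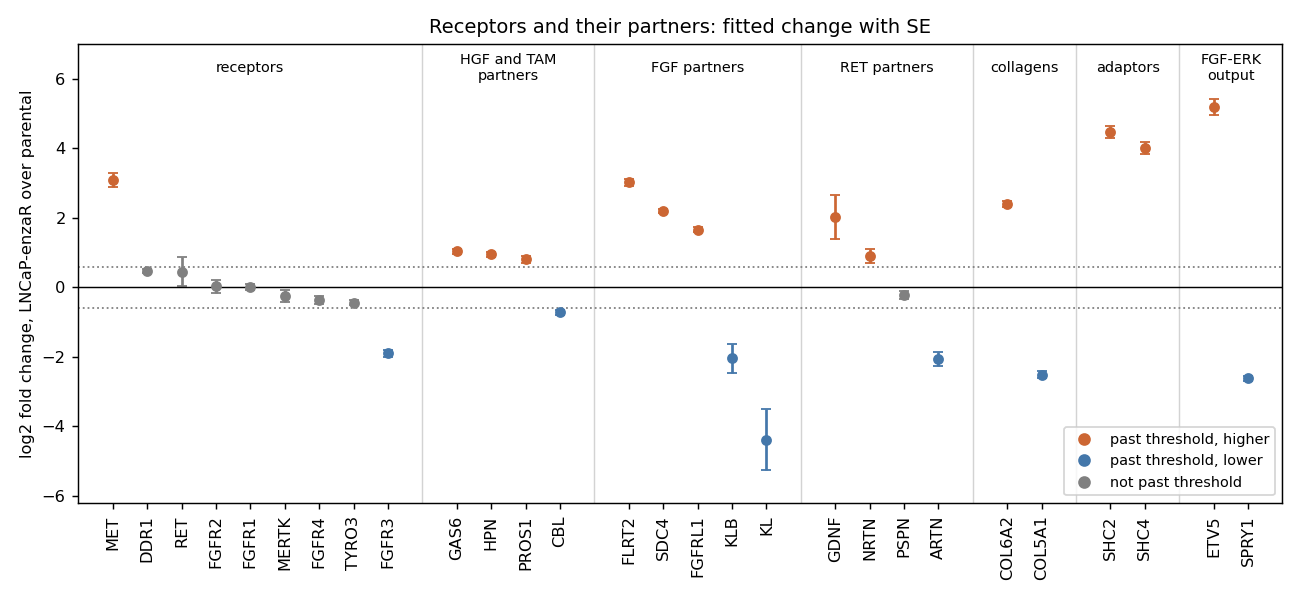
Fitted log2FC (LNCaP-enzaR over parental, vertical axis) with its SE, coloured by call, with dotted lines at the fold limit of 1.5. Shown are the 9 receptors tested and, chosen by rule, ligands, co-receptors, collagens, adaptors, output genes, the protease gene HPN and the ubiquitin ligase gene CBL. Among the receptors MET stands at 3.09 and FGFR3 at -1.91, and the other 7 lie between -0.44 and 0.46. GFRA2, which had 0 counts in every parental library, GRB14, ERBB2, EPHB4 and ERBB3 were also named by rule but are not shown.

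Most adaptors shared by these receptors had no call: of 22 tested, 6 rose, 1 fell and 15 had no call, with a median log2FC of 0.28. SHC2, a member of the Shc adaptor family, had 77, 51 and 89 counts in parental cells and 1772, 1598 and 1648 in LNCaP-enzaR (log2FC 4.46, SE 0.17, adjusted p = 1.95e-11). SHC4, of the same family, rose from 0.856 ± 0.26 to 13.6 ± 1.1 CPM (16.0-fold, adjusted p = 4.53e-11). GRB10, an adaptor of the insulin receptor family chosen after its values were seen, rose from 102 ± 3.9 to 843 ± 17 CPM (3.05, SE 0.06, adjusted p = 1.48e-14).

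Per kilobase of exon, DDR1 stood first among the 10 receptors in parental cells (14.3 ± 0.54 CPM per kilobase), followed by TYRO3 (3.88), FGFR3 (3.11), FGFR4 (1.83), FGFR1 (0.885), MERTK (0.642), FGFR2 (0.0716), MET (0.0502), RET (0.0273) and AXL (0.00819), with no overlap between neighbours. In LNCaP-enzaR the order was DDR1 (19.7 ± 1.9 CPM per kilobase), TYRO3 (2.86), FGFR4 (1.42), FGFR1 (0.896), FGFR3 (0.831), MERTK (0.537), MET (0.432), FGFR2 (0.0728), RET (0.0376) and AXL (0.00847). In that line the libraries of FGFR1 overlapped those of FGFR3, and those of MERTK overlapped those of MET, so these neighbours are not separated. DDR1 ranked 2 of 58 receptor tyrosine kinases in both lines, and rank 1 in parental cells when the longest transcript was taken as length. FGFR3 moved from rank 13 to rank 25. With the longest transcript, FGFR1 (rank 15) stood above FGFR4 (rank 16) in LNCaP-enzaR. Levels of DDR1, FGFR1 and FGFR2 depend most on the length used.

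**Figure D4:**
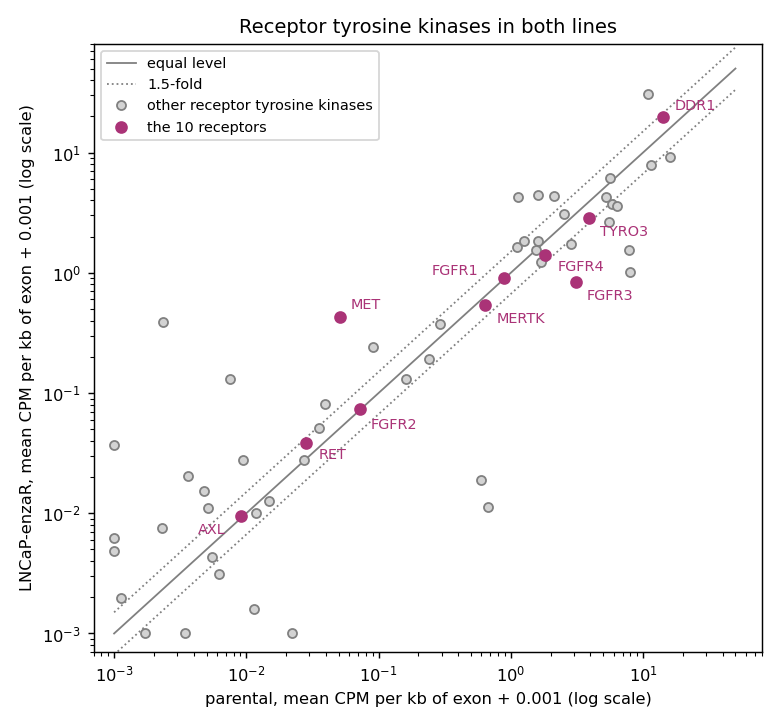
Mean level of each of the 58 receptor tyrosine kinases in parental cells (horizontal) and LNCaP-enzaR (vertical), in CPM per kilobase of exon plus 0.001 on log axes, with a line of equal level and dotted lines at 1.5-fold. MET lies above the dotted lines (0.0502 and 0.432), FGFR3 below (3.11 and 0.831), and the other 8 receptors lie between the dotted lines.

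Of the other 48 receptor tyrosine kinases, 33 were tested and 18 (54.5%) were past the threshold, 9 higher and 9 lower, with a median log2FC of 0.04. As a scale, the 3 with the highest levels per kilobase were ERBB2, EPHB4 and ERBB3. ERBB2, which encodes HER2 and has 6.93% of its exonic bases in another gene, rose from 112 ± 5.6 to 315 ± 11 CPM (log2FC 1.49, SE 0.06, adjusted p = 2.06e-11). EPHB4, an ephrin receptor, fell from 103 ± 1.5 to 58.8 ± 5.5 CPM (-0.81, SE 0.07, adjusted p = 8.57e-08), and ERBB3 stood at 135 ± 4.6 and 91.6 ± 2.0 CPM, under the fold limit (-0.56, SE 0.05, adjusted p = 3.93e-07). In LNCaP-enzaR, ERBB2 stood at 30.6 CPM per kilobase, beside 0.432 for MET.

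Among the 120 other genes compared, the one whose level most resembled that of MET across the 6 libraries was GRB14, an adaptor of the insulin receptor family (Pearson r = 0.9991), and for FGFR3 it was COL5A1 (r = 0.9975). The 6 points fall into 1 cluster per line, so both values are given as a description of the distance between the lines. GRB14 rose from 3.18 ± 0.11 to 8.72 ± 0.80 CPM (log2FC 1.45, SE 0.11, adjusted p = 2.39e-08).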

How the data were processed

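RNA from 6 libraries (3 parental, 3 LNCaP-enzaR) was sequenced by the authors as paired-end polyadenylated libraries, trimmed with Cutadapt, aligned with STAR to GRCh38 with the GENCODE annotation and counted with featureCounts. The deposited values are raw counts, 1 row per gene, without normalization. Strand setting, multi-mapping and the counting of reads or fragments are not given in the sources used here, so genes that share exons are uncertain. Groups and replicate numbers came from the sample titles, and 0 columns of other samples were present.

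The analysis used R 4.3.3 and edgeR 4.0.16, with filterByExpr at a minimum count of 10 (19711 of 35554 genes, holding 99.96% of counts), TMM and the quasi-likelihood F-test (robust, no covariates), with Benjamini-Hochberg adjustment over all genes tested. The limits of 0.05 and 1.5-fold follow the study's methods, which name DESeq2, run here as an alternative (1.42.0). SE was the log2FC divided by the square root of F, and 95% intervals used the t distribution of the fit. Lengths, the union of exons or the longest transcript, came from GENCODE v44. On counts simulated from these data for 19220 genes, genes of at least 1 CPM were called in 50 of 50 cases at 2-fold and 30 of 50 at 1.5-fold, and genes under 1 CPM in 4 of 17 at 2-fold. The simulation changed 200 genes, a far smaller share than the 42.7% called in the data, so its adjusted p-values are stricter.

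The receptors and the lists were chosen with earlier results of these data known. The genes named were the receptors, their cognate ligands and co-receptors, the 2 largest changes past the threshold with at least 1 CPM in each pathway list (ligands, co-receptors, collagens, adaptors and output genes, not the receptor tyrosine kinases or the cell type markers), the 3 most abundant other receptor tyrosine kinases per kilobase and the list gene most like each called receptor. Any further gene is marked as chosen with its values in view. The alternatives comprised DESeq2, other scalings (RLE, library totals, upper quartile), other filters, protein-coding genes only, no mitochondrial genes, a replicate block, other fold limits and leaving out each library.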

Additional observations from a re-analysis of the deposited data

How the results depend on the processing

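MET, FGFR3, DDR1, TYRO3, MERTK, RET and FGFR4 kept direction and call in every other fit (tool, scaling, filter, block or library left out, at the same fold limit), with MET between 2.96 and 3.22 and FGFR3 between -1.97 and -1.81 on the log2 scale. Of 42 named genes followed through these fits, 37 did so. The cell type markers, COL4A2, COL4A3, COL4A4, COL5A2 and GDF15 were not among the 42. Without a fold limit, DDR1, TYRO3 and FGFR4 pass. FGFR1 and FGFR2, which had no call, turned sign with library totals in place of TMM (-0.0168 and -0.0087) and when single libraries were left out (-0.0452 to 0.0698 and -0.0505 to 0.1365). Upper-quartile scaling shifted the median of all fold changes by 0.10 and the share of calls that were higher from 54.5% to 60.9%. ERBB3 reached the fold limit without parental replicate 1 (-0.59) and when scaled by library totals (-0.60), GDNF lost its call without parental replicate 3 (1.61), and TULP1 under DESeq2 (-1.01, adjusted p = 0.0583), the replicate block (-1.01, adjusted p = 0.0621) and without parental replicate 2, LNCaP-enzaR replicate 2 or LNCaP-enzaR replicate 3 (adjusted p 0.0573 to 0.147).

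Without a fold limit, 6467 genes were lower over the whole table in place of 3835, and 2 receptors were higher and 3 lower. In the lists, higher and lower counts then came to 4 and 2 in the HGF-MET axis and 10 and 7 among the adaptors, and 3 TAM genes were lower. At a 2-fold limit, 2326 genes were lower over the whole table, 6 receptor tyrosine kinases were lower in place of 10, 1 TAM gene was higher, the HGF-MET axis had 0 in each direction and the adaptors had 0 lower. With at least 10 counts in every library, which removes genes near 0 in 1 line, higher counts were 2 in the HGF-MET axis, 0 for FGF ligands, 3 for FGF-ERK output, 1 for RET partners and 5 for collagens, and lower counts were 0 for FGF ligands and 2 for FGF co-receptors. The HGF-MET axis had 4 higher under upper-quartile scaling, 3 with protein-coding genes only and 1 to 3 when single libraries were left out. Lower TAM genes numbered 0 under DESeq2, 0 under the replicate block and 0 to 1 when single libraries were left out, and lower FGF-ERK output genes 1 to 2. Where the construction does not show a cause, the cause was not tested.

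Replicate numbers did not pair the libraries: the correlation of same-numbered libraries' deviations was -0.211 to 0.00849. Under the replicate block, 4459 genes were higher and 3753 lower, and MET stood at 3.09. Depth limits AXL, which had 0 to 8 counts per library, and widens the interval of RET, which had 15 to 42.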
